A study of Mus musculus with 16 samples.

Results

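The genes examined here encode the synaptic vesicle release machinery: the SNARE proteins that fuse vesicle and plasma membranes, the synaptotagmins, the regulators of SNARE assembly, the scaffolds of the active zone and the proteins of the vesicle itself. Members were chosen by symbol among the annotated genes of the deposited table (the Syt, Syn, Snap, Vamp, Stx, Stxbp, Cplx, Unc13, Rims and Sv2 families with Syp, Bsn, Pclo, Slc17a6 and Slc17a7). The rule found 74 of 26625 entries and used no measured value. It held 17 synaptotagmins, 5 core synaptic SNAREs, 21 other SNAREs, 11 SNARE regulators, 10 priming and active zone proteins and 9 vesicle proteins, and Snap91, a clathrin assembly protein that matched by its symbol only. Of these, 68 had enough counts to be tested. Cplx4, Stx11, Stx19, Syt8, Syt15 and Vamp9 did not.

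RNA came from the medial prefrontal cortex (mPFC) of 16 male C57BL/6 mice aged 8 to 10 weeks, sequenced as full-length cDNA on the Nanopore platform. Every mouse had received an AAV in the mPFC that drove a short hairpin from the U6 promoter and EGFP from the CMV promoter, either a control hairpin (Ctrl) or one against Kdm7a (Kdm7a-shRNA). Every mouse then went through conditioned place preference over 10 days, in which morphine mice received 10 mg/kg on alternate days and the others saline throughout, and tissue was taken on day 17, after 7 days of withdrawal. The control virus was given to 3 saline mice (Ctrl + Saline) and 4 morphine mice (Ctrl + Morphine), and the hairpin to 5 saline mice (Kdm7a-shRNA + Saline) and 4 morphine mice (Kdm7a-shRNA + Morphine). The U6 promoter is active in all cell types, and the bulk tissue also held cells that the virus had not reached. Libraries held 6596991 to 12418112 counted reads, and levels are given as CPM after TMM scaling of the library totals.

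Kdm7a encodes a histone demethylase that removes repressive methyl marks from histone H3. Its own level was 9.78, 9.08 and 9.41 CPM in Ctrl + Saline mice and 5.74, 4.95, 6.04, 6.07 and 4.92 in Kdm7a-shRNA + Saline mice, a log2 fold change of -0.76 (SE 0.20, edgeR adjusted p = 0.0153). With morphine it was 7.79, 6.19, 8.89 and 8.02 CPM under the control virus and 6.28, 4.44, 3.01 and 6.04 under the hairpin, a log2 fold change of -0.67 (SE 0.21, edgeR adjusted p = 0.0506), so that 1 mouse of each group overlapped.

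At a synapse, a vesicle docks when its synaptobrevin (a Vamp protein) pairs with syntaxin and SNAP25 on the plasma membrane. Munc13 (Unc13) proteins prepare that pairing, complexins clamp and promote it, and synaptotagmin triggers fusion when calcium enters. Fast-spiking neurons such as the parvalbumin interneurons are known to use Vamp1, Syt2 and Cplx1 rather prominently, whereas most forebrain terminals rely on Vamp2, Syt1 and Cplx2.

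Since Vamp1 and Cplx1 were the members whose calls held in every setting in which they were tested, their upstream sequences are shown, together with that of Syt14, which was lower. Each is the run of 250 bases before the RefSeq start on the gene's own strand, read 5′ to 3′ from GRCm38.p6. Capitals mark the GC box GGGCGG or its reverse complement CCGCCC, the letters recognised by Sp-family factors. The windows are chr6:125215331-125215580 on the plus strand for Vamp1, chr5:108550028-108550277 on the minus strand for Cplx1 and chr1:193035776-193036025 on the minus strand for Syt14.
Vamp1: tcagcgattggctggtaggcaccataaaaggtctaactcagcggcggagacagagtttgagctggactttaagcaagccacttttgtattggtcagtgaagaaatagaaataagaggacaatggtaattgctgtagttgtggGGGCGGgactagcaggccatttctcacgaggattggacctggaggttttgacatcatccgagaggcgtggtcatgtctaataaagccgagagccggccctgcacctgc
Cplx1: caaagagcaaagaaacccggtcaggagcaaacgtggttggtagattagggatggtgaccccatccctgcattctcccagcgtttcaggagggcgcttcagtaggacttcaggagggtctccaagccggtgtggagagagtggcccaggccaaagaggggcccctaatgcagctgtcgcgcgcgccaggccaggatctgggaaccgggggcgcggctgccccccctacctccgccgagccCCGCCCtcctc
Syt14: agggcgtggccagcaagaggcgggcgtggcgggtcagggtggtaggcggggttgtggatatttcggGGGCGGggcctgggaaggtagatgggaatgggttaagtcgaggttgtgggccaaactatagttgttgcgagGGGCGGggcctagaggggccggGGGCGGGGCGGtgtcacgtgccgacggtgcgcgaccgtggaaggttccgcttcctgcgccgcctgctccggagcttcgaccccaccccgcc
Vamp1 and Cplx1 each held 1 GC box and Syt14 held 4, with 9, 15 and 25 CpG dinucleotides. Of the other called members, Stxbp6 and Stxbp5, both lower, had 0 and 2 GC boxes with 12 and 40 CpG. The windows of Syt2, higher, had 3 and 2 GC boxes with 30 and 22 CpG. The counts of higher and lower members thus overlapped. Rims2 and Syt12, also called, had no window. Over all 32851 RefSeq windows of this length, 32.7% held a GC box on either strand and the median number of CpG was 6. RefSeq starts matched 58 of the 74 members and gave 74 windows, since some genes have several starts; 44 of these windows (59.5%) held a GC box and their median number of CpG was 14. The TATA box letters TATAAA stood in 4 of the 74 windows (5.41%, against 12.4% of all windows) and the cAMP response element TGACGTCA in 2 (2.70%, against 1.55%), counting both strands. These are matches of letters and not sites of binding. In the GENCODE annotation the last 30 bases of the Vamp1 window lie in an exon of Vamp1, and 197 bases of the Cplx1 window lie in an exon of Gm43364. Of the Stxbp6 window, 226 of the 250 bases lie in an exon of Stxbp6 itself. Exons of Stxbp5 hold 39 bases of its own window, and exons of Gm26783 hold 72 bases of the first Syt2 window.

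Knockdown in saline-treated mice called 6 of the 68 tested members. Called means an edgeR quasi-likelihood p below 0.05 after Benjamini-Hochberg adjustment over all 18826 tested entries, with a fold change of at least 1.5. Cplx1, Vamp1 and Syt12 were higher and Stxbp6, Syt14 and Rims2 were lower. The share of members called, 8.82%, lay below the 16.7% of all tested entries and the 12% of tested annotated genes that passed the same rule, with 7.43% of all entries called higher and 9.31% called lower. In morphine-treated mice knockdown called 4 members, 5.88% of those tested, of which Vamp1 and Syt2 were higher and Stxbp6 and Stxbp5 lower. There 7.69% of all tested entries were called, 4.64% of the annotated genes, 2.86% of entries higher and 4.83% lower. Both shares of the members were under the background of the whole table. Beside annotated genes alone, which all members are, their share was lower with saline and higher with morphine. The median log2 fold change over the 68 members was -0.06 with saline and -0.03 with morphine, beside 0.01 and -0.00 over all tested entries. Over tested annotated genes it was 0.10 and 0.04. In bulk tissue, fewer cells of a type and less RNA per cell cannot be told apart. The sample titles number the replicates of each group, and each replicate was taken as 1 mouse. Both knockdown comparisons use control groups that also enter the morphine comparison.

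Vamp1 (chr6:125215551-125245964, plus strand), the synaptobrevin of fast-spiking and brainstem terminals, was the only core SNARE called. It stood at 14.3, 17.8 and 12.1 CPM in Ctrl + Saline mice and at 28.4, 33.5, 49.2, 31.2 and 37.6 in Kdm7a-shRNA + Saline mice, with no overlap. With morphine it was 14.0, 25.7, 14.9 and 12.3 CPM under the control virus and 53.8, 37.6, 51.2 and 25.2 under the hairpin, where the highest control mouse just overlapped the lowest knockdown mouse. The log2 fold change was 1.28 with saline (SE 0.27, edgeR adjusted p = 0.00444) and 1.33 with morphine (SE 0.26, edgeR adjusted p = 0.00594), that is 2.44-fold and 2.51-fold. Each call held when any single mouse was left out. Vamp1 overlaps Tapbpl and Cd27 on the opposite strand, and whether the counting used strand is not given in the sources used here. Tapbpl, a chaperone of antigen loading, was at 3.18 to 9.56 CPM in Ctrl + Saline and 10.6 to 15.8 in Kdm7a-shRNA + Saline mice (log2 fold change 0.79, edgeR adjusted p = 0.0707). Cd27 stayed at or below 1.23 CPM in every mouse. The part of these overlapping genes in the Vamp1 result was not tested. Among the other called members, Syt2 overlaps Ppp1r12b, Syt12 overlaps A930001C03Rik and Stxbp6 overlaps Gm15901, each on the opposite strand, and Stxbp6 also shares its strand with Gm15902.

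Vamp2, the main synaptobrevin of the forebrain, did not follow Vamp1. It was 922, 1031 and 837 CPM in Ctrl + Saline mice and 1038, 769, 799, 846 and 654 in Kdm7a-shRNA + Saline mice (log2 fold change -0.18, SE 0.15, edgeR adjusted p = 0.438). With morphine the change was -0.10 (SE 0.15, edgeR adjusted p = 0.728). As a share of the reads of both genes, not corrected for length, Vamp1 took 1.53%, 1.69% and 1.42% in Ctrl + Saline mice and 2.66%, 4.18%, 5.80%, 3.55% and 5.44% in Kdm7a-shRNA + Saline mice. The share was 1.59%, 2.51%, 1.64% and 1.15% in Ctrl + Morphine mice and 6.96%, 3.32%, 6.55% and 2.43% in Kdm7a-shRNA + Morphine mice, of which the lowest fell within the control range.

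**Figure D1:**
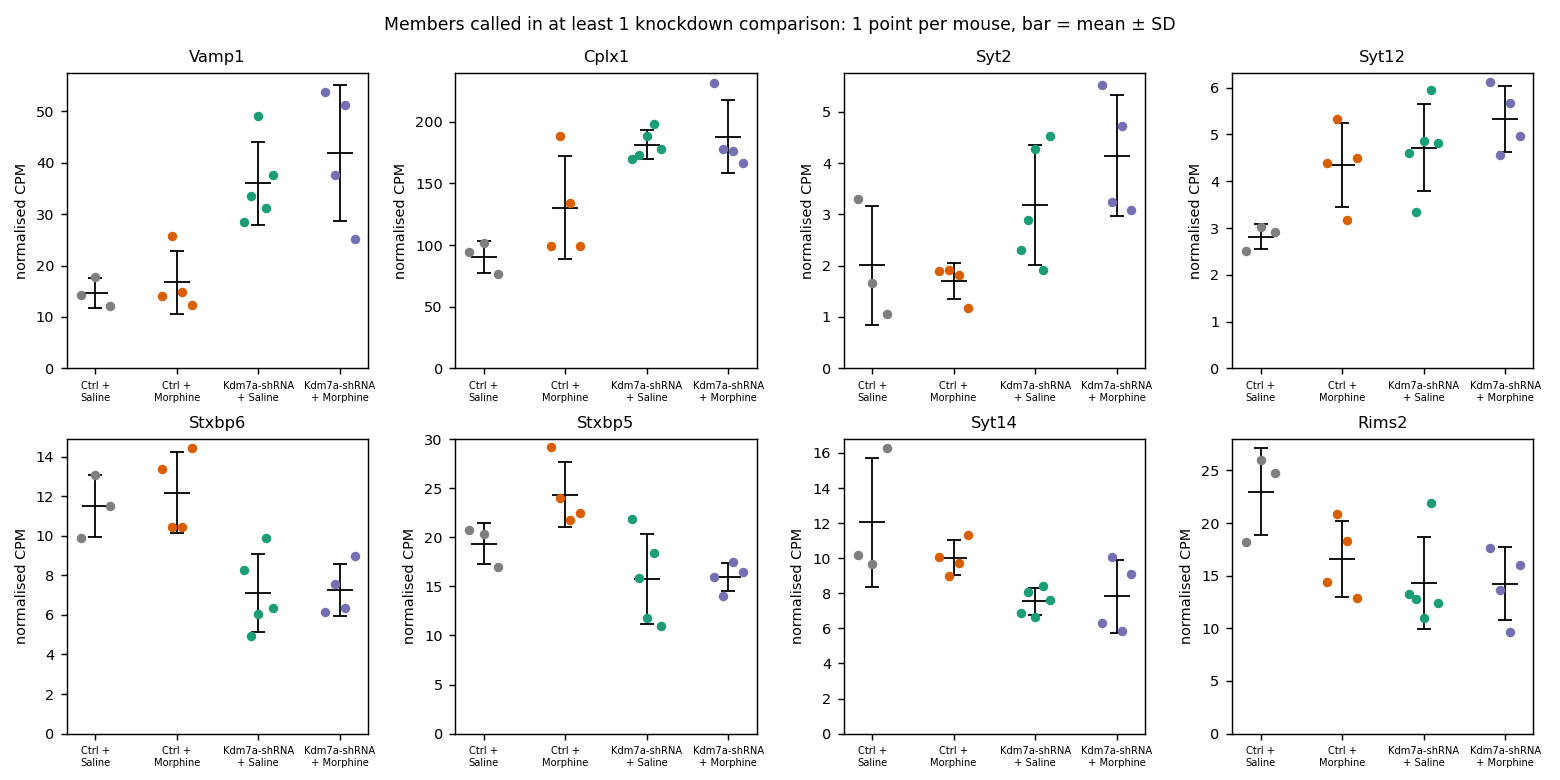
Normalised CPM of the 8 members called in at least 1 knockdown comparison, with 1 point per mouse and bars for the mean ± SD of 3, 4, 5 and 4 mice; each y axis starts at 0. With saline, Vamp1 and Cplx1 sit higher under the hairpin without overlap (Vamp1 mean 36.0 ± 8.12 CPM, against 14.7 ± 2.88 in Ctrl + Saline mice). With morphine, both genes overlap between Ctrl + Morphine and Kdm7a-shRNA + Morphine mice (Vamp1 mean 42.0 ± 13.2 CPM in the latter), and Cplx1 was not called. Stxbp6 sits lower under the hairpin in both treatments.

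Cplx1 (chr5:108518554-108550024, minus strand) encodes complexin 1, which binds the assembled SNARE complex. It was 94.4, 101 and 76.2 CPM in Ctrl + Saline mice and 170, 173, 188, 198 and 178 in Kdm7a-shRNA + Saline mice. The groups did not overlap, and the log2 fold change of 1.00 (SE 0.19, edgeR adjusted p = 0.0019) was called without any single mouse as well. In Ctrl + Morphine mice Cplx1 was 99.4, 189, 134 and 99.6 CPM, so that 1 control mouse reached the knockdown range of 232, 178, 176 and 167. The change with morphine was 0.53 (SE 0.17, edgeR adjusted p = 0.0625), short of the threshold. The difference between the knockdown effects, tested as the interaction, was -0.47 (SE 0.25, edgeR adjusted p = 0.525), so a smaller effect under morphine is not shown. Cplx2, the other forebrain complexin, had a log2 fold change of 0.30 (edgeR adjusted p = 0.336) with saline and 0.35 (edgeR adjusted p = 0.298) with morphine. Cplx1 made up 28.4% to 35.2% of the reads of both complexins in Ctrl + Saline, 37.1% to 39.7% in Ctrl + Morphine, 37.0% to 49.4% in Kdm7a-shRNA + Saline and 34.9% to 45.1% in Kdm7a-shRNA + Morphine mice.

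Syt2 (chr1:134646677-134762593, plus strand), a fast calcium sensor of interneuron and hindbrain terminals, was a low-level gene with 8 to 55 counts per mouse. It stood at 1.9, 1.92, 1.83 and 1.18 CPM in Ctrl + Morphine mice and at 5.52, 3.24, 4.73 and 3.09 in Kdm7a-shRNA + Morphine mice, with no overlap. The log2 fold change was 1.27 (SE 0.35, edgeR adjusted p = 0.0296). The call was lost without Ctrl + Morphine replicate 1, 3 or 4 or without Kdm7a-shRNA + Morphine replicate 1 or 3, with the adjusted p of edgeR up to 0.104. With saline the values overlapped, at 3.30, 1.66 and 1.06 CPM in control and 2.30, 2.88, 4.27, 1.91 and 4.52 in knockdown mice (log2 fold change 0.67, SE 0.37, edgeR adjusted p = 0.209). Ppp1r12b, the phosphatase subunit gene that overlaps Syt2, went the other way, with a log2 fold change of -0.91 in saline-treated mice (edgeR adjusted p = 0.00241) and -0.36 with morphine (edgeR adjusted p = 0.189). Syt1, the main calcium sensor of forebrain terminals, was at 929, 1152 and 830 CPM in Ctrl + Saline and 944, 679, 684, 1201 and 716 in Kdm7a-shRNA + Saline mice. It was not called with saline (log2 fold change -0.20, SE 0.21, edgeR adjusted p = 0.525) or with morphine (-0.02, SE 0.20, edgeR adjusted p = 0.960).

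**Figure D2:**
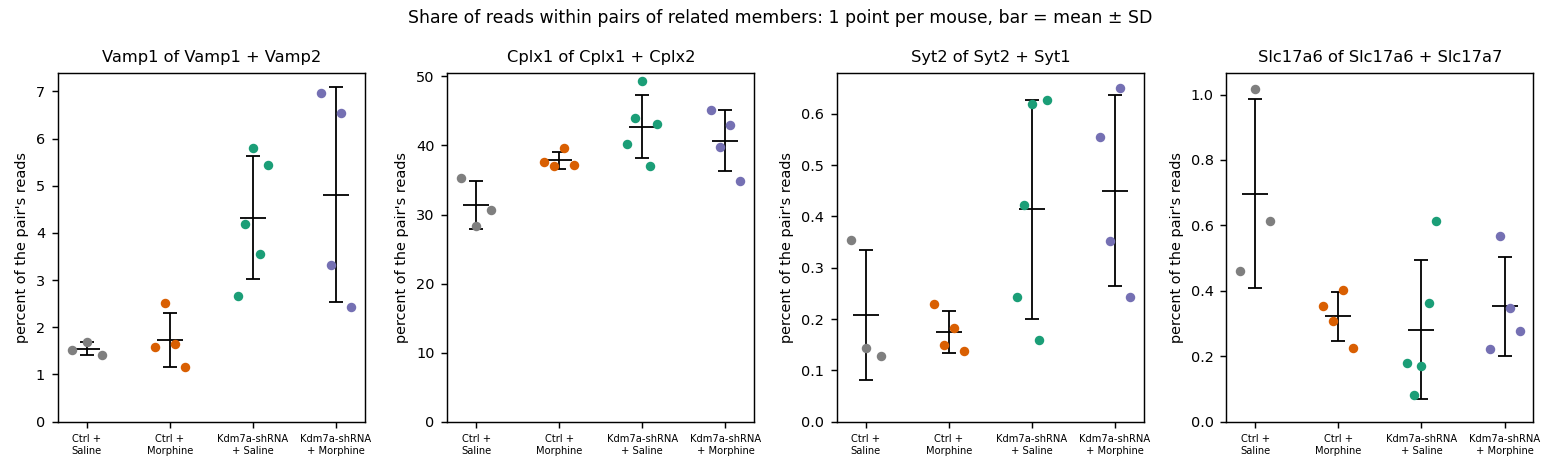
Share of reads, in percent, that the first gene took of the reads of a pair of related members, with 1 point per mouse and bars for the mean ± SD. Vamp1 took 1.42% to 1.69% of the Vamp1 and Vamp2 reads in Ctrl + Saline mice and 2.66% to 5.80% in Kdm7a-shRNA + Saline mice. With morphine the ranges overlapped, at 1.15% to 2.51% under the control virus and 2.43% to 6.96% under the hairpin. The Slc17a6 and Syt2 shares were under 1.1% in every mouse.

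Parvalbumin (Pvalb), the defining marker of the fast-spiking interneurons, is 1 of the 7 inhibitory markers examined. It was called higher in both knockdown comparisons, as Vamp1 was. Cplx1 was called with saline only and Syt2 with morphine only. Pvalb was 52.3, 58.7 and 58.4 CPM in Ctrl + Saline mice and 75.7, 98.4, 114, 69.7 and 96.3 in Kdm7a-shRNA + Saline mice (log2 fold change 0.68, edgeR adjusted p = 0.0174). With morphine it was 42.1, 71.5, 59.4 and 48.1 CPM in control and 123.04, 82.4, 98.0 and 84.1 in knockdown mice (0.81, edgeR adjusted p = 0.0118). The other inhibitory markers did not move as 1 group. Slc32a1, the vesicular GABA transporter, was also higher with saline (1.10, edgeR adjusted p = 0.00271) but was not called with morphine (0.15, edgeR adjusted p = 0.672). Sst, the somatostatin gene, fell with a log2 fold change of -1.14 with saline and -0.99 with morphine (edgeR adjusted p = 0.000609 and 0.00412). Of the 7 inhibitory markers, 2 were called higher (Pvalb and Slc32a1) and 3 lower (Sst, Vip and Gad2) with saline, and 1 in each direction (Pvalb and Sst) with morphine. Their summed level was 493 to 554 CPM in Ctrl + Saline, 523 to 547 in Ctrl + Morphine, 333 to 441 in Kdm7a-shRNA + Saline and 363 to 485 in Kdm7a-shRNA + Morphine mice, and none was at 0 in any mouse. The part of these markers in the results on Vamp1, Cplx1 and Syt2 was not tested.

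Stxbp6 (chr12:44852484-45074709, minus strand), which encodes amisyn, a syntaxin-binding protein that inhibits SNARE assembly, was lower with the hairpin in both treatments. It was 9.91, 13.1 and 11.5 CPM in Ctrl + Saline and 8.27, 4.95, 6.04, 9.90 and 6.33 in Kdm7a-shRNA + Saline mice. With morphine it was 13.4, 10.5, 10.5 and 14.4 CPM in control and 6.13, 7.55, 6.36 and 8.99 in knockdown mice. Neither pair of groups overlapped, although with saline the gap between the nearest mice was small. The log2 fold change was -0.70 (SE 0.21, edgeR adjusted p = 0.0267) with saline and -0.75 (SE 0.21, edgeR adjusted p = 0.0306) with morphine. With saline the call was lost without Ctrl + Saline replicate 2 or 3 or Kdm7a-shRNA + Saline replicate 2, 3 or 5 (edgeR adjusted p up to 0.127). With morphine it was lost without Ctrl + Morphine replicate 1 or 4 or Kdm7a-shRNA + Morphine replicate 1, 2 or 3 (edgeR adjusted p up to 0.107).

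Stxbp5 (chr10:9755547-9901079, minus strand) encodes tomosyn, which occupies syntaxin in place of synaptobrevin. It was 29.2, 24.0, 21.8 and 22.5 CPM in Ctrl + Morphine and 15.9, 14.0, 17.4 and 16.5 in Kdm7a-shRNA + Morphine mice, with no overlap. The log2 fold change of -0.61 (SE 0.19, edgeR adjusted p = 0.0496) lay at the threshold, and leaving out any of the 8 mice ended the call (edgeR adjusted p 0.0573 to 0.135). With saline the change was -0.30 (SE 0.19, edgeR adjusted p = 0.295).

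Among the synaptotagmins, the membrane proteins that include the calcium sensors, most fold changes were negative with knockdown. Of the 15 tested, 11 were negative with saline and 12 with morphine, and the median log2 fold change was -0.20 and -0.36, beside 0.01 and -0.00 over all tested entries. Over tested annotated genes the medians were 0.10 and 0.04. Few synaptotagmins passed the test. Syt14 (chr1:192891233-193035775, minus strand), a synaptotagmin that does not bind calcium, was 10.2, 9.66 and 16.3 CPM in Ctrl + Saline and 6.89, 8.06, 6.64, 8.44 and 7.64 in Kdm7a-shRNA + Saline mice, with no overlap (log2 fold change -0.67, SE 0.20, edgeR adjusted p = 0.0282). The high control mouse carried much of that difference: without Ctrl + Saline replicate 3 the log2 fold change was -0.42 (edgeR adjusted p = 0.220), and the call was also lost without Kdm7a-shRNA + Saline replicate 1 or 3 (0.0524 and 0.0607). With morphine the log2 fold change of Syt14 was -0.36 (SE 0.20, edgeR adjusted p = 0.280). Syt12 (chr19:4445908-4477447, minus strand), another synaptotagmin that lacks calcium binding, was 2.51, 3.03 and 2.91 CPM in Ctrl + Saline and 4.60, 3.34, 4.86, 5.96 and 4.82 in Kdm7a-shRNA + Saline mice (log2 fold change 0.74, SE 0.23, edgeR adjusted p = 0.0294). These groups did not overlap, but the call was lost without Ctrl + Saline replicate 1, 2 or 3 or Kdm7a-shRNA + Saline replicate 3, 4 or 5 (edgeR adjusted p up to 0.104). With morphine the log2 fold change of Syt12 was 0.29 (SE 0.21, edgeR adjusted p = 0.409).

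**Figure D3:**
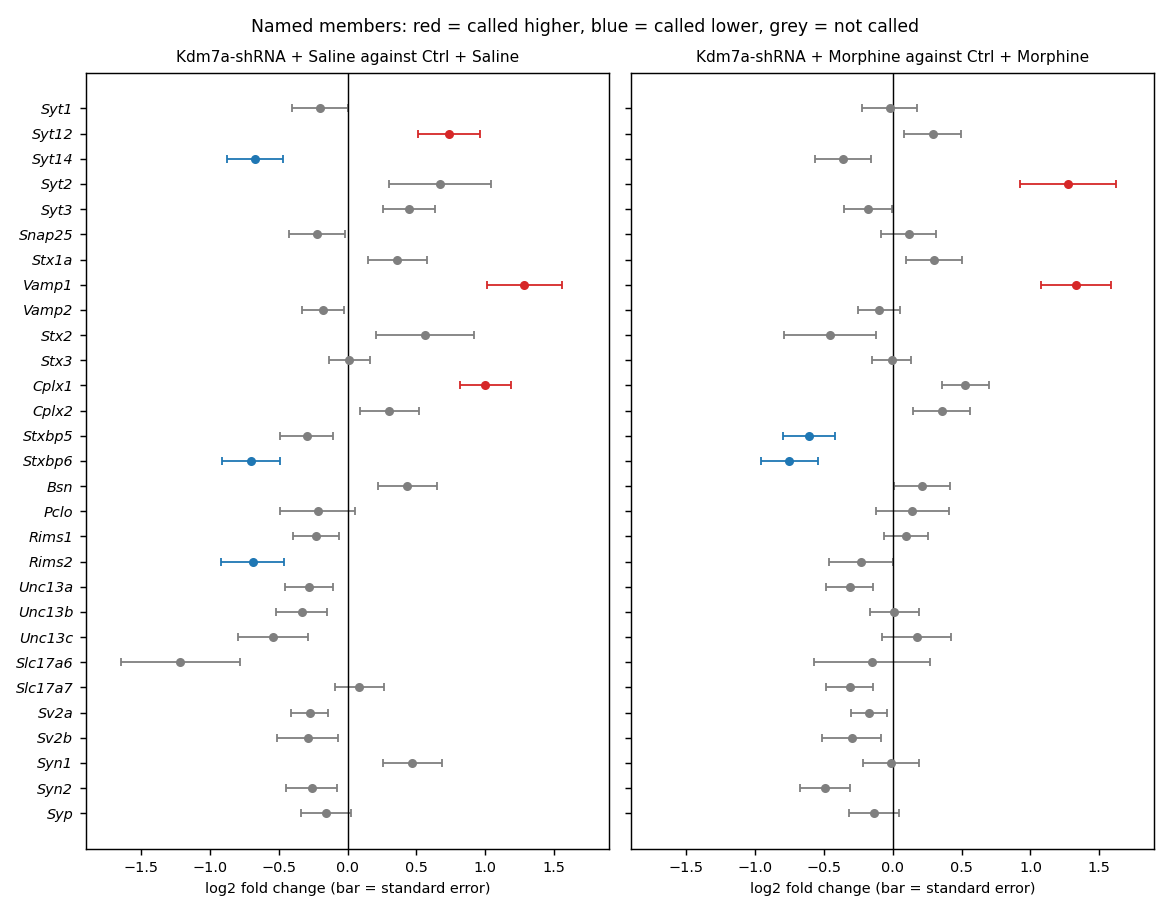
Log2 fold change with knockdown of the 29 named members, in saline-treated mice on the left and morphine-treated mice on the right, with bars for the standard error; red marks members called higher and blue members called lower. Vamp1 lies at 1.28 and 1.33 and Stxbp6 at -0.70 and -0.75. Most other members are grey, that is not called, although the bars of many do not reach 0.

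The priming and active zone proteins tether vesicles near calcium channels and make them ready to fuse. Of 10 tested, edgeR called 1 with saline and none with morphine, where none had an unadjusted p below 0.05 and DESeq2 called none. Rims2 (chr15:39198261-39684372, plus strand), a scaffold that binds vesicles through Rab3, was 18.2, 26.0 and 24.8 CPM in Ctrl + Saline and 13.2, 12.8, 11.0, 21.9 and 12.4 in Kdm7a-shRNA + Saline mice, where 1 knockdown mouse lay among the controls (log2 fold change -0.69, SE 0.23, edgeR adjusted p = 0.0432). The call was lost without Ctrl + Saline replicate 2 or 3 or Kdm7a-shRNA + Saline replicate 1, 2, 3 or 5 (edgeR adjusted p up to 0.165). With morphine the log2 fold change of Rims2 was -0.23 (SE 0.23, edgeR adjusted p = 0.576). Rims1, the major RIM of forebrain synapses, had log2 fold changes of -0.23 with saline and 0.10 with morphine (edgeR adjusted p = 0.345 and 0.760). The Munc13 genes Unc13a and Unc13b, which open syntaxin for assembly, had log2 fold changes of -0.28 and -0.33 with saline (edgeR adjusted p = 0.272 and 0.213), and Unc13c by -0.54 (edgeR adjusted p = 0.143). Bsn and Pclo, which encode the large scaffolds Bassoon and Piccolo, had log2 fold changes of 0.44 and -0.22 with saline (edgeR adjusted p = 0.159 and 0.613).

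None of the 9 vesicle proteins was called with knockdown by edgeR, with 2 at an unadjusted p below 0.05 with saline and 1 with morphine. Slc17a6, the vesicular glutamate transporter of subcortical neurons, came nearest. It was 1.72, 2.73 and 1.85 CPM in Ctrl + Saline and 0.804, 0.230, 0.474, 1.46 and 1.51 in Kdm7a-shRNA + Saline mice, which did not overlap but rested on 2 to 28 counts per mouse across the study (log2 fold change -1.21, SE 0.43, edgeR adjusted p = 0.0545). DESeq2 called it lower. Slc17a7, the transporter of cortical glutamatergic neurons, was 372, 266 and 301 CPM in Ctrl + Saline and 449, 284, 280, 402 and 244 in Kdm7a-shRNA + Saline mice (log2 fold change 0.08, SE 0.18, edgeR adjusted p = 0.777). Synaptophysin (Syp), the classical vesicle marker, was 662, 733 and 615 CPM in Ctrl + Saline and 812, 514, 458, 745 and 478 in Kdm7a-shRNA + Saline mice (log2 fold change -0.16, SE 0.18, edgeR adjusted p = 0.585). Syn1 and Syn2, the synapsins that hold the reserve pool, had log2 fold changes of 0.47 and -0.26 with saline (edgeR adjusted p = 0.129 and 0.338) and of -0.01 and -0.49 with morphine (0.981 and 0.0937). Sv2a and Sv2b, which encode vesicle glycoproteins, had log2 fold changes of -0.28 and -0.29 with saline and of -0.17 and -0.30 with morphine (edgeR adjusted p 0.163 to 0.450).

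Snap25 and Stx1a, further core SNAREs, were not called. Snap25, the plasma membrane SNARE of neurons, was 528, 725 and 610 CPM in Ctrl + Saline and 538, 425, 506, 716 and 479 in Kdm7a-shRNA + Saline mice (log2 fold change -0.22, SE 0.20, edgeR adjusted p = 0.466), and had a log2 fold change of 0.12 with morphine (edgeR adjusted p = 0.766). Stx1a, a syntaxin of the presynaptic membrane, had log2 fold changes of 0.36 with saline and 0.30 with morphine (edgeR adjusted p = 0.246 and 0.390). Of the 18 other SNAREs tested, which serve mainly the Golgi, endosomes and non-neuronal secretion, none was called in either knockdown comparison by edgeR or DESeq2. At an unadjusted p below 0.05 there were 4 with saline and 6 with morphine, and the share of all tested entries at that p was not computed. Stx3, a syntaxin of apical and ribbon-type membranes, had log2 fold changes of 0.01 and -0.01 (edgeR adjusted p = 0.963 and 0.984). A p above the threshold does not show that a level was the same.

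**Figure D4:**
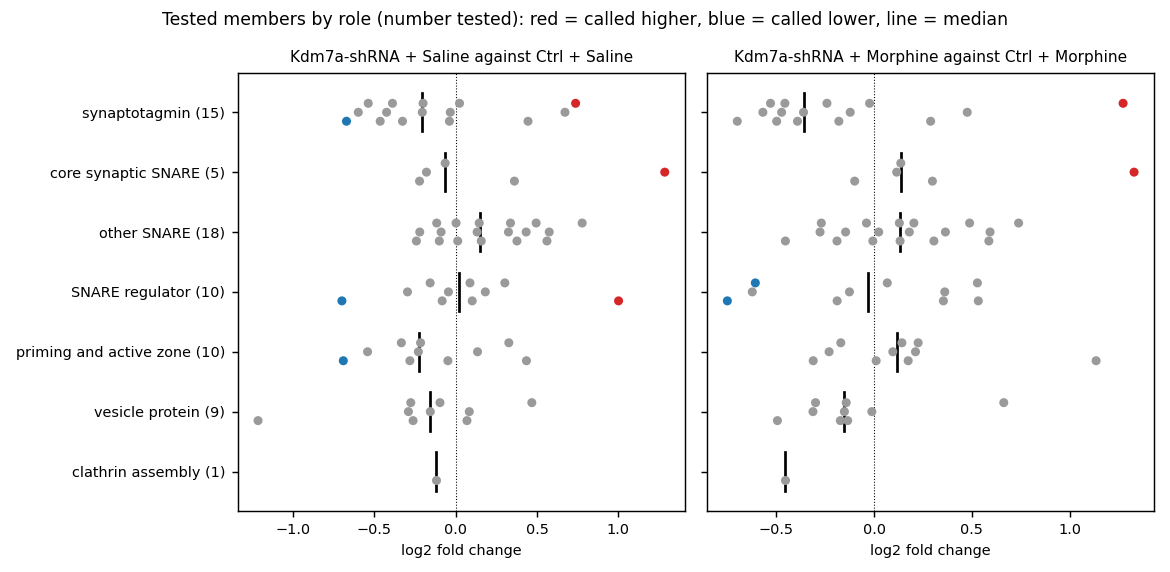
Log2 fold change with knockdown of the 68 tested members by role, in saline-treated mice on the left and morphine-treated mice on the right, with 1 point per gene and a line at each role's median. The synaptotagmin medians lie at -0.20 and -0.36, the other SNARE medians at 0.15 and 0.13, and the called members lie at the edges of their roles.

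Counting groups that did not overlap, rather than calls, gave 8 members with saline (5 higher and 3 lower) and 12 with morphine (4 higher and 8 lower). Over all tested entries 23.7% of groups did not overlap with saline and 13.9% with morphine. The members, at 8 and 12 of 68, lay under this background with saline and somewhat above it with morphine. It was not split by direction or limited to annotated genes.

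Within the Kdm7a-shRNA + Saline group the mice differed in the total of the release machinery, and markers of other cells differed with it. Summed over all members, the level was 8241, 6188, 6236, 8577 and 6038 CPM in replicates 1 to 5. Summed over 6 oligodendrocyte markers it was 8426, 18343, 17852, 8982 and 17396 CPM, and over 6 microglial markers 1123, 1701, 2306, 803 and 1735 CPM. In that group the mice with fewer reads from release genes thus had more from both kinds of glia. In Kdm7a-shRNA + Morphine replicates 1 to 4 the sum of members was 7789, 7617, 6567 and 9062 CPM. Their oligodendrocyte sums were 19802, 16424, 13017 and 8868 CPM, and the mouse with the lowest sum of members did not have the most. Their microglial sums were 999, 844, 2183 and 556 CPM, highest in the mouse with the lowest sum of members. Over the groups, the sum of the members was 6950 to 8129 CPM in Ctrl + Saline, 7397 to 9740 in Ctrl + Morphine, 6038 to 8577 in Kdm7a-shRNA + Saline and 6567 to 9062 in Kdm7a-shRNA + Morphine mice. The oligodendrocyte sum was 7473 to 12949, 7051 to 13138, 8426 to 18343 and 8868 to 19802 CPM, with none of 6 markers called. The microglial sum was 561 to 671, 311 to 601, 803 to 2306 and 556 to 2183 CPM, with 5 of 6 markers called higher with saline and 3 with morphine. The sum of 9 pan-neuronal markers was 2218 to 2461, 2211 to 2751, 1577 to 2348 and 1683 to 2661 CPM, with 1 marker (Map2) called lower with saline. None of 5 excitatory markers was called by edgeR (3 had an unadjusted p below 0.05 with saline and 1 with morphine), and with saline 2 of 6 astrocyte and 3 of 4 endothelial markers were called higher. Another 2 astrocyte markers had negative log2 fold changes with saline. The astrocyte sum did not rise with them, at 8720 to 10998 CPM in Ctrl + Saline and 8118 to 9801 in Kdm7a-shRNA + Saline mice. No marker of these lists was at 0 in any mouse. In the Kdm7a-shRNA + Saline group Vamp1 was 28.4 and 31.2 CPM in replicates 1 and 4 and 33.5 to 49.2 in the others. Cplx1 did not follow that split, being lowest in replicate 1 and highest in replicate 4 of the same group. Kdm7a-shRNA + Morphine replicate 4, with the lowest microglial sum of the knockdown mice (556 CPM) and the highest sum of members among them (9062 CPM), had Vamp1 at 25.2 and Cplx1 at 167 CPM, both within the Ctrl + Morphine ranges. Cplx1 in replicates 2 and 3 of that group also lay within the control range. Replicate 3 had the group's highest microglial sum (2183 CPM) and its lowest sum of members (6567 CPM). The part of cell makeup in the members' results was not tested.

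Across the 68 tested members, Spearman's rho between log2 fold change and the length of the longest protein-coding transcript was -0.29 with saline and -0.15 with morphine. Across 14035 other annotated genes it was -0.22 and -0.15. Genes are not independent replicates, and the points of each comparison share the same libraries. In the longest 23 members, of 4553 to 20084 bases, the median log2 fold change with saline was -0.23 and 6 were positive. In the shortest 22 members, of 1456 to 2934 bases, it was 0.01 and 12 were positive. Other annotated genes in the same length ranges had medians of -0.03 and 0.19. With morphine the medians of the members were -0.13 for the longest and -0.02 for the shortest, with 10 positive in each, so the split by length was smaller there. Rims2, Stxbp5, Stxbp6 and Syt14, all lower, have transcripts of 4800, 8825, 4553 and 9274 bases, whereas Cplx1, Vamp1 and Syt12, all higher, have 2189, 3011 and 3581. Syt2, higher with morphine, has 6879 bases. The part of length in these results was not tested.

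Morphine under the control virus called no member and no other entry (0% of those tested). At an unadjusted p below 0.05 there were 8 members, all higher, and DESeq2 called none. Markers of other cells differed in the same comparison. The sum of 5 striatal markers was 54.6 to 76.1 CPM in Ctrl + Saline and 101 to 131 CPM in Ctrl + Morphine mice, and that of 6 astrocyte markers 8720 to 10998 and 6984 to 8508 CPM, with no overlap in either and none of these markers called by edgeR (1 of each list had an unadjusted p below 0.05). Their part in the members' values was not tested. Over all tested entries 11.7% had an unadjusted p below 0.05 in either direction, which for 68 members is close to the count found. That share was not split by direction, so the 8 higher members have no background of their own direction. Of the 68 members, 46 had a positive and 22 a negative log2 fold change. The smallest p belonged to Syt3, a calcium-binding synaptotagmin, at 19.8, 14.9 and 12.3 CPM in Ctrl + Saline and 19.3, 23.8, 29.5 and 25.9 in Ctrl + Morphine mice (log2 fold change 0.65, SE 0.20, edgeR adjusted p = 0.197). Slc17a7 was next and its groups did not overlap, with 422, 553, 422 and 475 CPM in Ctrl + Morphine mice above the saline values given earlier (log2 fold change 0.58, SE 0.19, edgeR adjusted p = 0.231). Syn1 did not overlap either, at 108, 98.6 and 73.0 CPM with saline and 118, 190, 125 and 133 with morphine (log2 fold change 0.60, SE 0.22, edgeR adjusted p = 0.284). Cplx1 had a log2 fold change of 0.52 (SE 0.19, edgeR adjusted p = 0.268), and Vamp1 one of 0.18 (SE 0.28, edgeR adjusted p = 0.843). The median over the members was 0.09, beside -0.01 over all tested entries and 0.04 over tested annotated genes.

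**Figure D5:**
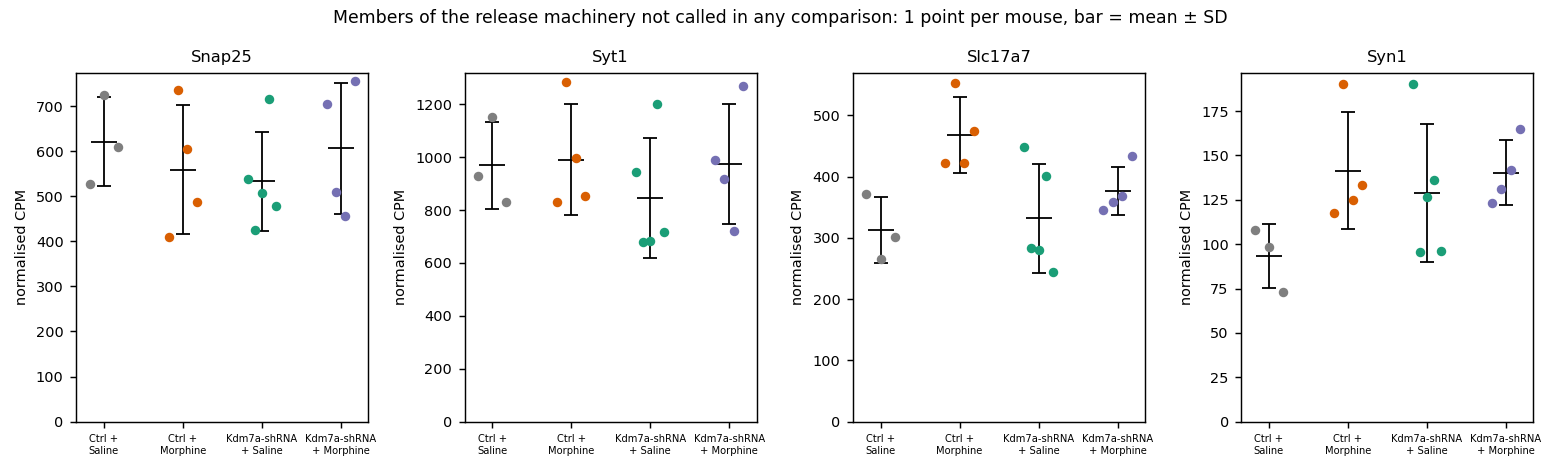
Normalised CPM of Snap25, Syt1, Slc17a7 and Syn1, which were called in no comparison, with 1 point per mouse and bars for the mean ± SD; each y axis starts at 0. Slc17a7 is at 266 to 372 CPM in Ctrl + Saline mice and 422 to 553 in Ctrl + Morphine mice, while the 4 groups of Snap25 and Syt1 overlap.

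Morphine under the hairpin called no member, and 0.00531% of all tested entries. At an unadjusted p below 0.05 there were 4 members, and DESeq2 called none. The share of all tested entries at that p was computed for morphine under the control virus only. Counts at that p in the other comparisons therefore have no background. Stx3 had the smallest p, at 12.1, 12.1, 10.5, 12.4 and 15.7 CPM in Kdm7a-shRNA + Saline and 16.1, 18.3, 15.4 and 16.4 in Kdm7a-shRNA + Morphine mice (log2 fold change 0.40, SE 0.13, edgeR adjusted p = 0.613). Unc13b followed, with a log2 fold change of 0.45 (edgeR adjusted p = 0.671), then Rims1 with 0.34 (0.703). The interaction of knockdown and morphine called no member and 0.085% of all tested entries. One member, Syt3, had an unadjusted p below 0.05 (log2 fold change -0.63, SE 0.26, edgeR adjusted p = 0.373), and DESeq2 called none. Stx2, a syntaxin of non-neuronal secretion, had a log2 fold change of -1.01 (SE 0.49, edgeR adjusted p = 0.473) and Unc13c one of 0.71 (SE 0.36, edgeR adjusted p = 0.498). No difference between the knockdown effects with and without morphine was therefore shown for any member.

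Further genes of the same pathway, taken from a list of 65, were examined beside the members, of which 62 were tested. With saline 11 were called higher and 4 lower, or 24.2% of those tested. Of all tested entries 16.7% were called, and of tested annotated genes, the kind to which all 62 belong, 12%. With morphine 2 were higher and 3 lower, or 8.06%, beside 7.69% of all tested entries and 4.64% of tested annotated genes. The list was chosen with earlier results of these data known, and the part of cell makeup in its results was not tested. The endocytosis genes, which retrieve vesicle membrane after fusion, gave most of the higher calls: with saline 6 of 21 were called higher and 1 lower, beside 7.43% and 9.31% of all tested entries. Bin1 (amphiphysin 2) had a log2 fold change of 0.87 (SE 0.18, edgeR adjusted p = 0.00393), Sh3gl2 (an endophilin) 0.72 (SE 0.17, edgeR adjusted p = 0.00727) and Dnm1 (dynamin 1) 0.63 (SE 0.18, edgeR adjusted p = 0.0219), while the scaffold Itsn2 was lower at -0.62 (SE 0.17, edgeR adjusted p = 0.0158). With morphine edgeR called none of the 21, and 1 had an unadjusted p below 0.05. The interaction called none of them either (7 at an unadjusted p below 0.05, smallest edgeR adjusted p 0.114), so a difference between the treatments is not shown. Of 14 other vesicle membrane genes tested, 3 were called higher with saline and none lower. Syngr1 (synaptogyrin 1) had 0.97 (SE 0.17, edgeR adjusted p = 0.00124), Syngr2 1.40 (SE 0.37, edgeR adjusted p = 0.0134) and Slc32a1, the vesicular GABA transporter, 1.10 (SE 0.22, edgeR adjusted p = 0.00271). Syngr1 was also called with morphine (0.61, SE 0.16, edgeR adjusted p = 0.0236), as was Scamp4 (0.62, SE 0.14, edgeR adjusted p = 0.0125). Among the 14 other priming and active zone genes with saline, the liprins Ppfia3 and Ppfia4 were higher at 0.82 and 1.30 (edgeR adjusted p = 0.00686 and 0.00622), and the scaffold Erc2 was lower at -1.06 (edgeR adjusted p = 0.00789). With morphine Cadps2, a factor of dense-core vesicle release, and Doc2b, a high-affinity calcium sensor, were lower at -0.84 and -1.68 (edgeR adjusted p = 0.0120 and 0.0469). Of the 10 disassembly and small GTPase genes, Rab3c was lower with saline at -1.06 (edgeR adjusted p = 0.0169). Of 3 calcium channel subunits of the terminal, Cacna1e was lower with saline at -0.76 (edgeR adjusted p = 0.0198) and Cacna1b with morphine at -0.77 (edgeR adjusted p = 0.0188).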

How the data were processed

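RNA from the mPFC of 16 mice was sequenced by the authors as Nanopore cDNA. Per the study's methods, reads were filtered on quality and length, ribosomal reads were removed, and full-length reads were mapped to mm10 with minimap2 and collapsed with Pinfish and cDNA Cupcake. The deposited table holds gene counts and CPM that the authors computed per library; the deposited CPM equal count over library total, and only the counts were tested. Of its 26625 entries, 7210 (27.1%) are loci assembled by the authors and not annotated genes.

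Counts were fitted with edgeR 4.0.16 in R 4.3.3 (TMM scaling, filterByExpr on the 4 groups, 1 coefficient per group, quasi-likelihood F test) over all 16 mice. Entries with Benjamini-Hochberg adjusted p below 0.05 and at least 1.5-fold change were called, in 5 comparisons. The common biological coefficient of variation was 0.215, and the code was tested on simulated data. A count of 0 allows 3 counts, or 0.258 to 0.460 CPM, for counting error only. Replicates of a group had correlations of 0.956 to 0.985 on the log2 scale, and no pair agreed within sampling noise. Same-numbered mice are different animals. Between Ctrl + Saline and Ctrl + Morphine all 3 same-numbered pairs had correlated deviations over 0.1 (0.125 to 0.224), and between the other groups not all did. A replicate block called no member in that comparison, as without it.

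The named members were Kdm7a as a check, 20 core members, each called member and, per comparison, the 3 with the smallest p. Members at the end of a range, and other genes of the pathway, were named beside their counts. Some members enter the counts and are not reported here by name. The members and gene lists were chosen with earlier results of these data known. Positions and lengths are from GENCODE M21 (GRCm38). The alternatives tried were size factors of the RLE kind, scaling by library size, 2 other count filters, DESeq2 1.42.0, a fit of the compared groups alone, a replicate block, adjusted p alone, annotated genes only, and each mouse left out.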

Additional observations from a re-analysis of the deposited data

Results flagged for a closer look

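Of 87 groups of 4 or 5 mice examined over 29 named members, 5 held a mouse set apart from the others of its group by Dixon's criterion, which chance alone meets in about 1 group of 20. Ctrl + Morphine replicate 2 was high for Bsn, at 80.2 CPM beside 50.8 to 52.5 in the other mice of its group, and for Pclo, at 42.7 beside 22.8 to 24.4. The same mouse had the highest sum of members in the study, 9740 CPM. Kdm7a-shRNA + Saline replicate 4 was high for Rims2, at 21.9 CPM beside 11.0 to 13.2. Kdm7a-shRNA + Morphine replicate 3 was low for Sv2a, at 64.0 CPM beside 86.7 to 90.1. Ctrl + Morphine replicate 4 was low for Syt2, at 1.18 CPM beside 1.83 to 1.92.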

How the results depend on the processing

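No called member changed direction under any alternative. Over 159 refits of the 10 called member and comparison pairs, 112 kept the call and 47 did not. Vamp1 in both knockdown comparisons and Cplx1 with saline kept it in all. With all mice kept, the other losses were Stxbp5 (RLE size factors, no filter, annotated genes only), Syt2 (annotated genes only), Rims2 (replicate block) and Syt12 (library size only, compared groups alone, replicate block, annotated genes only). Syt2 had too few counts to be tested with at least 10 counts in every mouse. The number of members called with knockdown under morphine was 2 when only annotated genes were kept, against 4; the cause was not tested. Leaving out 1 mouse gave 1 to 7 members with morphine and 2 to 8 with saline; it was 7 without Kdm7a-shRNA + Morphine replicate 4, 1 without Ctrl + Morphine replicate 1 or 4 or Kdm7a-shRNA + Morphine replicate 1 or 3, 2 without Ctrl + Morphine replicate 3 or Kdm7a-shRNA + Morphine replicate 2, and with saline 2 without Ctrl + Saline replicate 3 or Kdm7a-shRNA + Saline replicate 3. Scaling by library size alone moved the median of all entries from 0.01 to -0.12 with saline and from -0.00 to -0.11 with morphine, and the split with saline from 3 higher and 3 lower to 2 and 4. RLE size factors gave 2 higher and 1 lower with morphine, against 2 and 2. Same-numbered mice of different groups are different animals, and 6 of their 21 pairs had correlated deviations over 0.1 (range -0.116 to 0.433), so the numbers were not taken as a pairing for the knockdown comparisons. With the replicate block, 7 members were called with saline and 4 with morphine. No member was called in the other 3 comparisons under any alternative. Over all tested entries, the share called with morphine was 7.69% in the fit used, 4.11% with the compared groups alone, 3% with annotated genes only and 3.03% to 11.0% with 1 mouse left out. With saline it was 16.7% in the fit used, 9.74% with annotated genes only and 7.40% to 19.8% with 1 mouse left out. DESeq2 called 1.01% for morphine under the control virus, against 0%, and 1.21% for the interaction, against 0.085%. Groups of 3 to 5 mice limit precision, and members under about 5 CPM rest on few reads.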

Other observations

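Some members that the results above do not describe had an unadjusted p below 0.05 with knockdown without being called. Vamp8, an endosomal and secretory synaptobrevin, had a log2 fold change of 0.78 with saline (edgeR adjusted p = 0.107) and 0.74 with morphine (edgeR adjusted p = 0.153). Snap23, the broadly expressed relative of Snap25, had 0.57 and 0.59 (edgeR adjusted p = 0.142 and 0.167). Stxbp3, a syntaxin-binding protein of non-neuronal secretion, had 0.53 with morphine (edgeR adjusted p = 0.0517) and 0.09 with saline (edgeR adjusted p = 0.755). Snap91, the clathrin assembly protein that matched the rule by its symbol alone, had -0.45 with morphine (edgeR adjusted p = 0.0750). These members were named after their values were seen.

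Some uncalled members with wide fold changes had few reads. Unc13d, at 1 to 55 counts per mouse, had -1.25 with morphine under the control virus (edgeR adjusted p = 0.602), and Syn3, at 1 to 19 counts, had 0.83 with morphine under the hairpin (edgeR adjusted p = 0.742).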
